A study of Mus musculus with 4 samples.

Results

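The Sp9 peaks described here lay more than 5 kb and at most 50 kb from the nearest transcription start site (TSS) in the E13.5 list and had no counterpart in the E16.5 list. They number 550 of the 5847 peaks of the E13.5 list (9.41%), and 42.1% of its 1307 peaks in this distance range. The list came from 1 chromatin immunoprecipitation (ChIP-seq) library against Sp9, made from the basal ganglia of CD1 wild-type embryos of embryonic day 13.5, and the E16.5 list from 1 library of the same tissue, strain and antibody at day 16.5, with 6022 peaks. Each stage also had 1 input library, made without antibody, which entered only through the authors' peak calling. A peak counted as E13.5-only when no gene assigned to it had an E16.5 peak whose signed TSS distance was within 200 bp of its own, and each peak number was counted once, whatever letters followed it. The lists give peaks by assigned gene, so a peak within some distance of a gene here means a peak assigned to that gene. Peaks assigned only to other genes are not counted, even where they lie close. The peaks were chosen by their measured TSS distance and by their absence from the E16.5 list, so both are described and not tested. Each stage had a single Sp9 library and so no replicates, the lists give no peak height and no read depth, and a peak missing from the E16.5 list may lie just under the authors' threshold. Basal ganglia hold progenitors, young neurons and other cells, and which of them carried a peak cannot be told from the lists.

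Sp9 belongs to the SP/KLF family of zinc finger proteins, which bind GC-rich and GT-rich DNA. In the embryonic ventral forebrain it is made in progenitors of the subventricular zone of the ganglionic eminences and in the young neurons they give rise to, among them striatal projection neurons and interneurons. Sites at some distance from a TSS often act as enhancers, whose activity can change as cells leave the progenitor state, while promoters tend to be shared between cell states.

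The lists hold no chromosome positions, so the sequence of the peaks themselves is not shown. Shown instead are the 250 bases before the TSS of 3 genes that had an E13.5-only peak 5 to 50 kb away and, in the same list, a peak within 250 bp upstream of the TSS, so that a reader can see the promoters next to which these distal sites were called. The sequences are from RefSeq on build GRCm38.p6, all on the minus strand, written 5′ to 3′. The TSS of the deposited lists belongs to build mm9 and may differ from that of RefSeq. Capitals mark the GC box GGGCGG on either strand, the textbook site of the SP family. Sox4 (chr13:28953700-28953949), a SOX factor of early neuronal differentiation, had its promoter peak 64 bp upstream of the TSS. Zfhx2 (chr14:55092049-55092298), a zinc finger homeobox gene, had it 19 bp upstream. Arrdc4 (chr7:68749239-68749488), an alpha-arrestin gene, had it 110 bp upstream.
Sox4: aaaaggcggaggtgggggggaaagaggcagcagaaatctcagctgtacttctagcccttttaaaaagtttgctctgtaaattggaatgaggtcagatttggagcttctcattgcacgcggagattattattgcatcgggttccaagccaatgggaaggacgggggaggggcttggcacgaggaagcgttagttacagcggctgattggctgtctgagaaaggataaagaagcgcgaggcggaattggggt
Zfhx2: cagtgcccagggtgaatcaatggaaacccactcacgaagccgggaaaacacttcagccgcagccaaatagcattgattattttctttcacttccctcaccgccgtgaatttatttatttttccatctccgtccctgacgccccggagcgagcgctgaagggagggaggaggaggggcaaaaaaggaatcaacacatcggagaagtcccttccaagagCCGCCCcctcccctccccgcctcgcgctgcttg
Arrdc4: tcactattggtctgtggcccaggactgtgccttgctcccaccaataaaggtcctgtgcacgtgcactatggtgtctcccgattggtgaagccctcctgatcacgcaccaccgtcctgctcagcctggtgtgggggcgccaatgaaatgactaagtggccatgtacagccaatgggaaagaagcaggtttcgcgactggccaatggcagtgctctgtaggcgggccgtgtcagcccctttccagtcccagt
The Zfhx2 window held 1 GC box, and the letters were not found in the windows of Sox4 and Arrdc4. Over the nearest protein-coding genes of E13.5-only peaks that had a promoter in the table, 204 of 357 (57.1%) held a GC box in these 250 bases, against 57.6% of 481 genes nearest to recurring peaks, 61.7% of 290 nearest to E16.5-only peaks and 45.8% of all 17492 genes. The homeodomain core TAATTA stood in 6.44% of the promoters near E13.5-only peaks, in 7.69% of those near recurring peaks, in 3.45% of those near E16.5-only peaks and in 5.11% of all. A match is a string of letters, not a measured site.

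Few E13.5-only peaks had an E16.5 peak of the same gene nearby, 117 of the 550 (21.3%) within 10 kb. For 134 of the 550 (24.4%) none of the assigned genes had any E16.5 peak. For the other 416 the nearest E16.5 peak of the same gene lay at a median of 33.5 kb, and for 107 of them it lay beyond 100 kb. Peaks that narrowly missed the 200 bp limit were few: 29 of the 550 (5.27%) had an E16.5 peak within 500 bp and 42 (7.64%) within 1000 bp. The recurring peaks of the same distance range, 757 in number, differed from their E16.5 partner by a median of 34 bp, and 88 of them by more than 100 bp. Just inside the limit stood peaks of Glis2, Cap2 and Gtf2h5, 203, 206 and 207 bp from an E16.5 peak. Just outside it stood peaks of Kcns2, Acsf3 and Gm9874, at 189, 193 and 196 bp. The limit itself made both groups, so these counts describe where peaks lay on either side of it and were not tested.

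**Figure D1:**
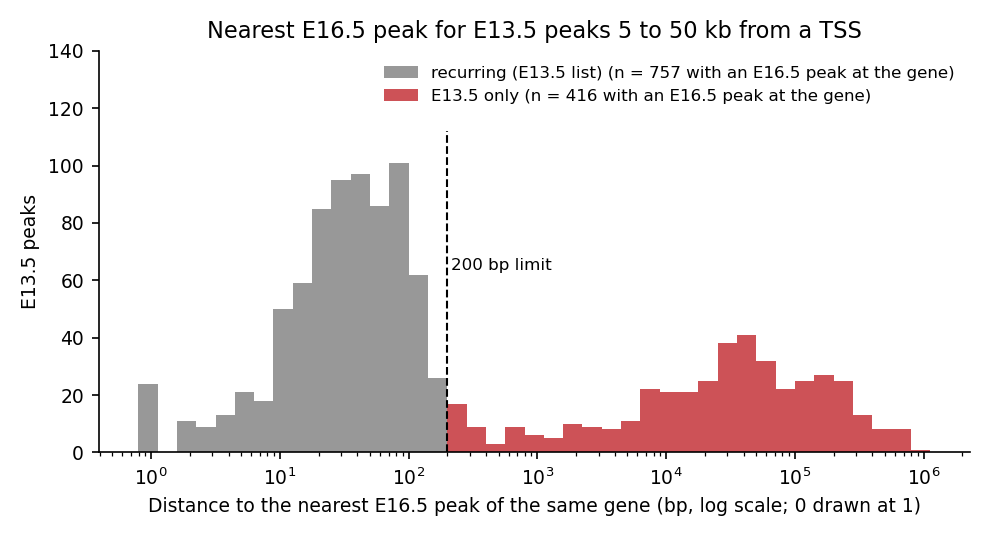
Distance in bp (log scale) from each E13.5 peak 5 to 50 kb from a TSS to the nearest E16.5 peak of the same gene, for the 757 recurring peaks (grey) and the 416 E13.5-only peaks with an E16.5 peak at an assigned gene (red); the dashed line is the 200 bp limit. The grey peaks gather around 34 bp, their median, and the red ones around 33.5 kb, with 42 of them within 1000 bp.

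Within their window the E13.5-only peaks were spread over the whole span. Their distance to the nearest TSS had a median of 26.3 kb, from 5.01 to 49.97 kb, against 25.4 kb for the recurring peaks and 22.7 kb for the 445 peaks of this range found in the E16.5 list only. Within 20 kb lay 37.8% of the E13.5-only, 38.3% of the recurring and 44.7% of the E16.5-only peaks, given without a test because distance was part of the rule. The nearest to the lower limit were peaks of Ptprc, Mlip and Sox4, 5009, 5107 and 5134 bp from the TSS, and just below it stood peaks of Plekha1, Rtn4 and St5 at 4864, 4861 and 4833 bp. At the upper limit, peaks of Lphn3, Susd1 and Kcna4 lay inside at 49732, 49846 and 49967 bp, and peaks of Rhbg, Zfp608 and Lypd6b outside at 50011, 50041 and 50314 bp. Of the 550 peaks, 506 (92.0%) were assigned to 2 genes, the flanking pair, and 43 to a single gene.

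**Figure D2:**
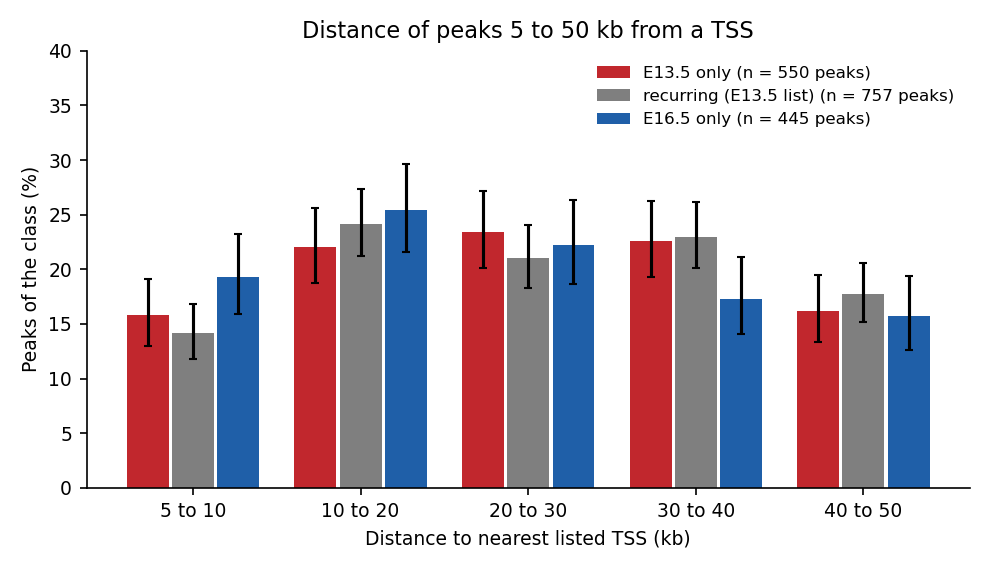
Share of peaks (%) by distance to the nearest listed TSS (kb) for E13.5-only peaks (red, 550), recurring peaks of the E13.5 list (grey, 757) and E16.5-only peaks (blue, 445); error bars are 95% Wilson intervals and cover counting error only. From 5 to 10 kb the E13.5-only share was 15.8%, the recurring 14.1% and the E16.5-only 19.3%, and all 3 intervals overlap.

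None of 3 peak properties that the rule did not use (side of the TSS, close neighbours and lettered entries) separated the E13.5-only peaks from the recurring peaks or from the E16.5-only peaks in two-sided Fisher's exact tests with Benjamini-Hochberg adjustment over a family of 8. The tests compare classes of peaks in these lists, and neighbouring peaks are not independent replicates. Upstream of the TSS lay 224 of 550 E13.5-only peaks (40.7%, 95% Wilson interval 36.7 to 44.9) and 312 of 757 recurring peaks (41.2%), a difference of -0.49 percentage points (95% interval -5.85 to 4.92, adjusted Fisher's exact p = 0.865). Of the E16.5-only peaks, 198 of 445 (44.5%) lay upstream (adjusted Fisher's exact p = 0.393). Another peak of the same list stood within 10 kb of 117 E13.5-only peaks (21.3%), of 135 recurring peaks (17.8%) and of 111 E16.5-only peaks (24.9%), and neither difference passed (adjusted Fisher's exact p = 0.346 for each). Lettered entries, the division of 1 numbered peak into several, marked 20 E13.5-only peaks (3.64%) and 14 recurring peaks (1.85%; adjusted Fisher's exact p = 0.211). Among E16.5-only peaks 21 of 445 (4.72%) had such entries (adjusted Fisher's exact p = 0.567). Of the 20 E13.5-only peaks with lettered entries, 17 belonged to the locus of Cwc22. With loci of 10 or more peaks left out, the differences from the recurring peaks in lettered entries and close neighbours turned to -1.16 and -0.89 points (adjusted Fisher's exact p = 0.291 and 0.803). The difference from the E16.5-only peaks in lettered entries was then -2.32 points (adjusted Fisher's exact p = 0.0568).

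A single locus stood apart. Cwc22, which encodes a spliceosome-associated protein, had 29 E13.5-only peaks in this range (5.27% of all 550), 15 of them upstream, spread from 48766 bp upstream to 49396 bp downstream of its TSS. Within 50 kb of Cwc22 stood 36 peaks of the E13.5 list, against 8 of the E16.5 list. The nearest E16.5 peak of the same gene, also counting those beyond 50 kb from the TSS, stood 350 to 12741 bp from the 29 peaks, with a median of 2969 bp. Of the 29, 17 were divided into 2 to 10 lettered entries, 77 in all. Itln1, a lectin gene, and its neighbour Cd244, an immune receptor gene, shared 4 further E13.5-only peaks, 5325, 6130, 7294 and 13577 bp upstream of Itln1. Each of these 4 had an E16.5 peak 209 to 567 bp away, and within 50 kb of Itln1 stood 5 E13.5 peaks and 15 E16.5 peaks. Together these loci carried 33 of the 550 peaks, and 25 of the 33 had an E16.5 peak within 5000 bp. Away from loci with 10 or more peaks, 517 E13.5-only peaks remained.

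The question for gene groups was which of them had an E13.5-only peak 5 to 50 kb from their own TSS. Over all 21900 protein-coding genes, 523 (2.39%) had such a peak, 745 (3.4%) had a recurring one and 456 (2.08%) an E16.5-only one. Of 655 genes in 27 lists, 69 (10.5%) had an E13.5-only peak, 86 (13.1%) a recurring peak and 48 (7.33%) an E16.5-only peak. The lists were drawn up for this tissue with earlier results of these peaks known, so shares above the background describe where the peaks lay and were not tested. All 69 genes were also the nearest gene of at least 1 of these peaks.

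**Figure D3:**
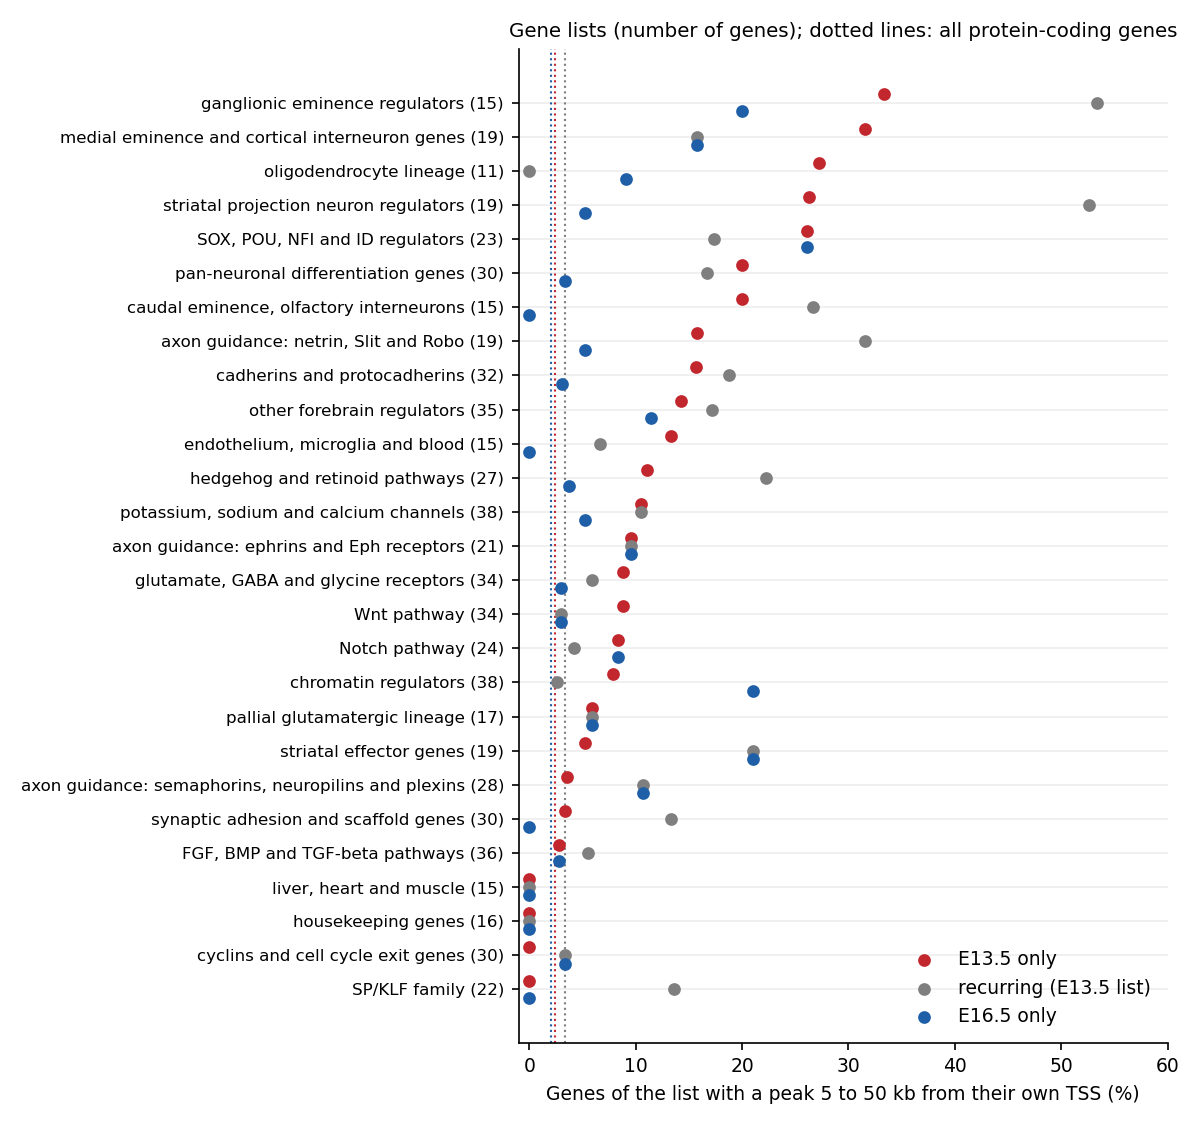
Share of the genes of each list (%) with a peak 5 to 50 kb from their own TSS, by class of peak (red E13.5-only, grey recurring, blue E16.5-only), with the number of genes in parentheses; dotted lines are the shares over all protein-coding genes, 2.39%, 3.4% and 2.08%. Ganglionic eminence regulators stand highest for E13.5-only peaks at 33.3%, and they stand at 53.3% for recurring peaks. Liver, heart and muscle, housekeeping, cell cycle and SP/KLF genes stand at 0 for E13.5-only peaks. With a background of 2.39%, nothing is read from a 0 in lists of these sizes.

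Among regulators of the germinal zones of the ganglionic eminence, 5 of 15 genes (33.3%, against 2.39% of protein-coding genes) had an E13.5-only peak, 8 of 15 a recurring one and 3 of 15 an E16.5-only one. Dlx1, a homeobox gene that drives GABAergic differentiation, had a dense group of sites in both lists. A single one of its peaks in this range, 8884 bp upstream, was E13.5-only, while those 15518 and 10545 bp upstream and 7780, 10081 and 13127 bp downstream recurred. Tle4 and Tle1 encode Groucho corepressors, which are recruited by DNA-binding repressors. Tle4 had E13.5 peaks 334 bp upstream and 31094 and 79453 bp downstream, and the nearest E16.5 peak lay 210625 bp from the one at 31094 bp. Tle1 had its E13.5-only peak 32185 bp downstream, between 2 peaks at 17577 and 42294 bp that recurred at 17595 and 42303 bp. Within 100 kb, none of the E13.5 peaks of Tle4 recurred, and 3 of the 6 of Tle1 did.

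Of the regulators of striatal projection neurons, 5 of 19 (26.3%) had an E13.5-only peak, 10 of 19 a recurring one and 1 of 19, Bcl11b, an E16.5-only one. Meis2, a homeodomain factor of striatal precursors, had adjacent E13.5-only peaks 21561 and 22399 bp downstream, and no E16.5 peak lay downstream of its TSS within 50 kb. Its peak 10285 bp upstream recurred at 10420 bp. Foxp4, a forkhead gene, had an E13.5-only peak 14776 bp downstream, beside recurring peaks 9522 bp downstream and 27269 and 28169 bp upstream. Bcl11a, a zinc finger factor of neuronal differentiation, had its E13.5-only peak 18079 bp downstream, just beyond a peak at 17527 bp that recurred at 17439 bp. The E16.5 peak stood 640 bp away, and with a limit of 1 kb the Bcl11a peak was no longer E13.5-only.

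Retinoid signalling shapes the lateral ganglionic eminence and striatum, and 2 of its nuclear receptor genes were in this class. Rxrg had a single peak within 100 kb in the E13.5 list, 8421 bp downstream, and Rarb a single one 28683 bp upstream. In the E16.5 list no peak within 100 kb was assigned to either gene. The nearest E16.5 peak of an assigned gene stood 403731 bp from the Rxrg peak and 232352 bp from the Rarb peak. In the list of hedgehog and retinoid genes that holds both, 3 of 27 (11.1%) had an E13.5-only peak and 6 of 27 a recurring one. Ptch1, the receptor of hedgehog ligands, was the third, with an E13.5-only peak 10811 bp downstream and recurring peaks 983 bp upstream and 20057 and 34522 bp downstream.

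Among 19 genes that carry out striatal neuron function (enzymes, receptors, peptides), 1 (5.26%, against 2.39% of protein-coding genes) had an E13.5-only peak, beside 4 of 19 with a recurring and 4 of 19 with an E16.5-only peak. The 1 was Grik3, a kainate receptor subunit gene, with a peak 43844 bp downstream. It lay 753 bp from an E16.5 peak and beside a recurring peak at 44544 bp, and with a limit of 1 kb it was no longer E13.5-only. The effector genes with an E16.5-only peak in this range included Gad1, Gad2 and Chrm4.

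Genes of the medial eminence and of cortical interneurons had E13.5-only peaks in 6 of 19 cases (31.6%), recurring ones in 3 of 19 and E16.5-only ones in 3 of 19. Zeb2, a zinc finger homeobox gene that directs interneuron migration, had E13.5-only peaks 45193 bp upstream and 15830 bp downstream. The E16.5 list placed a peak 32929 bp downstream of Zeb2 instead, and a peak at 80789 bp was found again at 80745 bp. Gbx1, a homeobox gene of ventral forebrain neurons, had E13.5-only peaks 29476 and 36671 bp downstream on either side of a peak at 31956 bp that recurred at 31957 bp. Cux2 had an E13.5-only peak 16669 bp downstream and, in the E16.5 list, a peak 370 bp upstream of its TSS and none farther out within 100 kb. St18, a zinc finger gene of early neurons, had an E13.5-only peak 27700 bp downstream, while those 347 bp upstream and 70693 bp downstream recurred. Both Gbx1 and St18 thus had recurring sites beside the E13.5-only ones.

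Of the genes of olfactory interneurons and of the caudal and dorsal lateral eminences, 3 of 15 (20%) had an E13.5-only peak, 4 of 15 a recurring one and 0 of 15 an E16.5-only one. Nr2f1, a nuclear receptor of the caudal eminence, had an E13.5-only peak 31432 bp downstream, and the E16.5 list had one 871 bp upstream. Etv5, an ETS factor downstream of FGF signalling, had an E13.5-only peak 10687 bp downstream and one at 49971 bp that recurred. Robo2, a Slit receptor gene, had a single peak within 100 kb, 14118 bp downstream at E13.5.

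In the SP/KLF family, to which Sp9 itself belongs, 0 of 22 genes had an E13.5-only peak in this range and 0 of 22 an E16.5-only one, while 3 of 22 (Sp8, Sp9 and Klf7) had a recurring one. With a background of 2.39%, nothing is read from the 0 in a list of this size. The same holds for the other lists that stand at 0.

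Broad regulators of neural progenitors (SOX, POU, NFI and ID genes) had E13.5-only peaks in 6 of 23 cases (26.1%), recurring peaks in 4 of 23 and E16.5-only peaks in 6 of 23. Sox4 had E13.5-only peaks 5134 bp upstream and 17974 bp downstream, around a promoter peak 64 bp upstream that recurred 1 bp upstream of the TSS. Sox2, a neural stem cell factor, had an E13.5-only peak 11660 bp downstream, and the E16.5 list had E16.5-only peaks 7285 bp upstream and 5929 and 14173 bp downstream. Within 50 kb of Sox2 no peak was shared by the lists, and the E16.5 peak closest to the E13.5-only one stood 2513 bp away. Nfia, a nuclear factor I gene of gliogenesis, had its E13.5-only peak 5337 bp upstream, and a peak 63051 bp upstream recurred. Sox21 had an E13.5 peak 5459 bp downstream and an E16.5 peak 5768 bp downstream, 309 bp apart, so both counted as stage-only and stopped doing so with a limit of 500 bp.

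**Figure D4:**
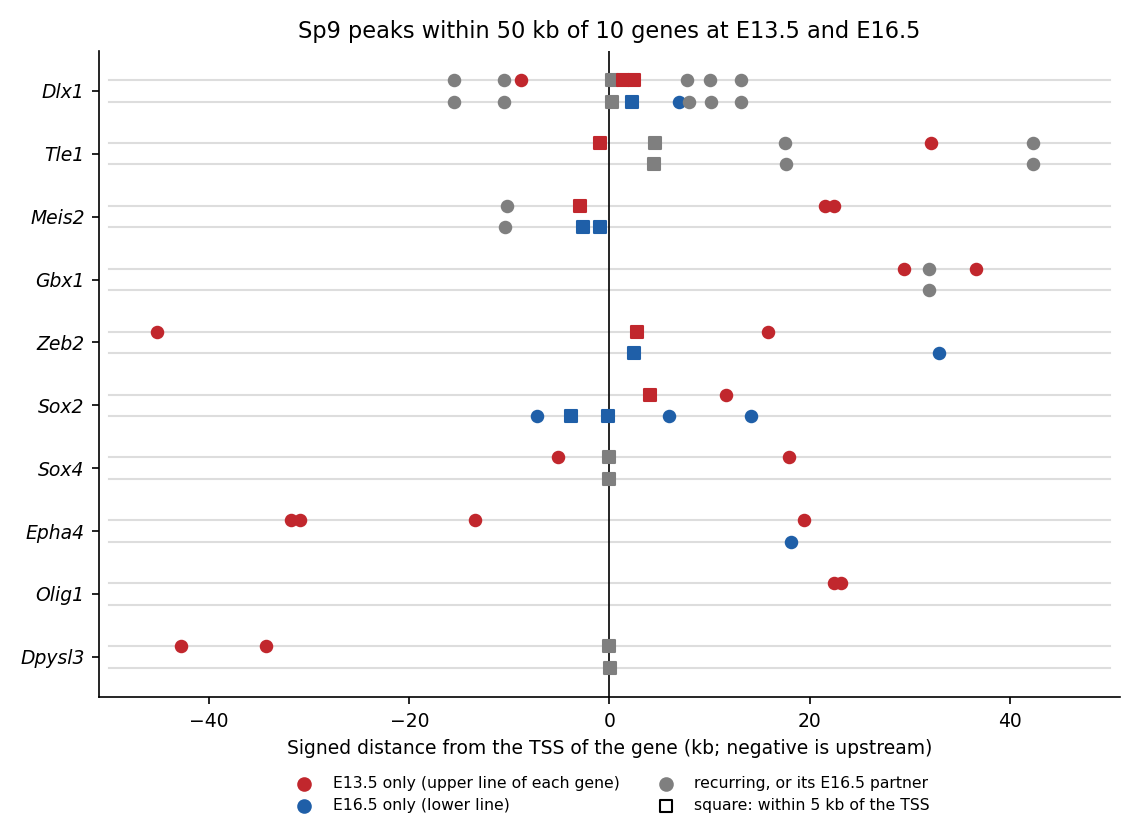
Sp9 peaks within 50 kb of the TSS of 10 genes, by signed distance in kb, with the E13.5 list on the upper and the E16.5 list on the lower line of each gene; red marks E13.5-only, blue E16.5-only and grey recurring peaks, and squares lie within 5 kb of the TSS. Olig1 has 2 red peaks and an empty E16.5 line, Gbx1 has a grey peak between 2 red ones, and Sox2 has red and blue peaks at different places.

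Guidance receptors and ligands steer the axons of young neurons and the paths of migrating cells. Of the netrin, Slit and Robo genes 3 of 19 (15.8%) had an E13.5-only peak, of the ephrin and Eph genes 2 of 21 (9.52%), and of the semaphorin, neuropilin and plexin genes 1 of 28 (3.57%). In the same order, recurring peaks stood at 6 of 19, 2 of 21 and 3 of 28 genes. E16.5-only peaks stood at 1 of 19, 2 of 21 and 3 of 28. The E13.5-only share of the semaphorin, neuropilin and plexin list was near the background of 2.39%. Epha4, an ephrin receptor gene, had 4 E13.5-only peaks, the most of any gene away from the dense loci. They lay 31829, 30952 and 13462 bp upstream and 19482 bp downstream, and they were all its E13.5 peaks within 50 kb. In the E16.5 list Epha4 had 1 peak in that span, 18124 bp downstream, and a farther one 77227 bp upstream that was at 77324 bp at E13.5. Dcc, the netrin receptor gene, had an E13.5-only peak 7612 bp downstream with no E16.5 peak assigned to it within 100 kb. Neo1, its relative, had one 39383 bp upstream and in the E16.5 list a peak 32 bp upstream of the TSS. Plxna2, a semaphorin receptor gene, had one 10845 bp downstream next to a recurring peak at 18051 bp, and Ephb6 one 12431 bp upstream with no E16.5 peak at any assigned gene.

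In the Notch, Wnt and growth factor pathways 6 genes had an E13.5-only peak. Of the Notch genes 2 of 24 (8.33%) had one: Hey1, a Notch target, 39521 bp upstream, and Maml2, a coactivator, 42288 bp upstream. Neither Hey1 nor Maml2 had an E16.5 peak at an assigned gene. Of the Wnt genes 3 of 34 (8.82%) had one: the secreted inhibitors Sfrp1 (31464 bp upstream) and Dkk2 (46778 bp downstream) and the repressor Tcf7l1 (45542 bp upstream). Of the FGF, BMP and TGF-beta genes 1 of 36 (2.78%) had one, Smad1, a BMP effector, 7382 bp downstream, beside a peak at 43791 bp that recurred at 43843 bp. The share of this last list was near the background of 2.39%.

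Cadherins join cells to one another, and synaptic adhesion genes join the sides of a synapse. Of the cadherins and protocadherins 5 of 32 (15.6%) had an E13.5-only peak, 6 of 32 a recurring and 1 of 32 an E16.5-only one. Cdh2, the neural cadherin of the ventricular surface, had E13.5-only peaks 47550 bp upstream and 46434 bp downstream, and in the E16.5 list a single peak within 100 kb, 674 bp downstream. Pcdh8 had one 5715 bp downstream and a peak at 47221 bp that recurred at 47191 bp, while Cdh11 (31129 bp downstream) and Pcdh19 (35650 bp downstream) had no E16.5 peak within 100 kb. Of the synaptic adhesion and scaffold genes 1 of 30 (3.33%) had one, the receptor phosphatase gene Ptprs, 14117 bp downstream, beyond peaks at 1516 and 8857 bp that recurred. In this list 4 of 30 genes had a recurring peak and 0 of 30 an E16.5-only one. Its E13.5-only share was near the background of 2.39%.

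Genes of excitability had single E13.5-only peaks. Of the transmitter receptors 3 of 34 (8.82%) had one, and of the ion channels 4 of 38 (10.5%), as many as had a recurring peak. The receptor genes were Glrb (8581 bp downstream), Gabrg1 (20168 bp downstream) and Grin2a (29818 bp downstream), which encode glycine, GABA and NMDA receptor subunits. The channel genes were Cacna2d3 (22553 bp downstream), Scn3b (27817 bp upstream), Kcnq3 (46688 bp downstream) and Kcna4 (49967 bp upstream). The Kcnq3 peak lay 253 bp from an E16.5 peak and lost its E13.5-only status with a limit of 500 bp.

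Pan-neuronal differentiation genes had E13.5-only peaks in 6 of 30 cases (20%), recurring ones in 5 of 30 and E16.5-only ones in 1 of 30. Dpysl3, a cytoskeletal regulator of growth cones, had E13.5-only peaks 42853 and 34349 bp upstream, and its promoter peak 93 bp upstream at E13.5 was found 67 bp downstream at E16.5. Myt1, a zinc finger gene of neuronal commitment, had one 10197 bp downstream and recurring peaks at 1115 and 3748 bp. Rbfox1, a neuronal splicing regulator, had one 17058 bp upstream and a recurring peak 89356 bp downstream. All 3 of these genes also had a recurring peak within 100 kb.

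Chromatin regulators had E13.5-only peaks in 3 of 38 cases (7.89%) and E16.5-only ones in 8 of 38 (21.1%), with 1 of 38 recurring. Jarid2, a Polycomb cofactor, had its E13.5-only peak 21086 bp downstream, Arid1a, a subunit of the BAF remodelling complex, 23741 bp downstream, and Gse1, a component of a corepressor complex, 25032 bp downstream. All 8 other E13.5 peaks within 100 kb of the Gse1 TSS recurred, from 63182 bp upstream to 61272 bp downstream. Among other forebrain regulators 5 of 35 (14.3%) had one, including Zfhx2 6869 bp downstream, and Lmo3 and Lmo1, which encode LIM-only cofactors, 12311 bp upstream and 40161 bp downstream. The pallial glutamatergic list had 1 of 17 genes, Bhlhe22, with a peak 42206 bp downstream, and the cyclins and cell cycle exit genes 0 of 30.

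Markers of other cell types were looked at in the same way. Of the oligodendrocyte lineage 3 of 11 genes (27.3%) had an E13.5-only peak, 0 of 11 a recurring one and 1 of 11, Sox10, an E16.5-only one. Olig1 had 2 adjacent peaks, 22446 and 23097 bp downstream, and Olig2, its neighbour, 1 peak 16302 bp upstream. Both are basic helix-loop-helix genes that are also used by progenitors of the ganglionic eminence. In the E16.5 list no peak within 100 kb was assigned to Olig1. Pdgfra, the receptor gene that marks oligodendrocyte precursors, had an E13.5-only peak 24997 bp upstream and one 87103 bp downstream that recurred. The E13.5-only peak was also assigned to Gsx2, a gene of the ganglionic eminence list, 51693 bp downstream of its TSS. The nearest E16.5 peak of an assigned gene stood 42574 bp away. Of the endothelial, microglial and blood genes 2 of 15 (13.3%) had one, Ptprc (5009 bp downstream) and Cdh5 (39513 bp upstream), and of the liver, heart and muscle genes and the housekeeping genes 0 of 15 and 0 of 16. Which cells gave these peaks was not tested.

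Counted over all genes, absence of a site from the E16.5 list did not always mean absence of the gene from it. Of the 523 protein-coding genes with an E13.5-only peak, 207 (39.6%) had an E16.5 peak within 50 kb, 109 (20.8%) had E16.5 peaks only farther out, and 207 (39.6%) had none. The matching shares over all protein-coding genes are not given, so these shares are not read as high or low. A recurring peak in the same 5 to 50 kb range stood at 91 of the 523 genes (17.4%, against 3.4% of all protein-coding genes). An E16.5-only peak stood at 70 of the 523 (13.4%, against 2.08%). The nearest gene had an E13.5 promoter peak within 1 kb for 80 of the 550 E13.5-only peaks (14.5%, 11.8 to 17.7). The same held for 88 of the 757 recurring peaks (11.6%, 9.53 to 14.1). The nearest gene had an E16.5 promoter peak for 13.5% and 15.7%. These intervals overlap. Of the 80 peaks, 29 belonged to Cwc22 alone, which had an E13.5 peak 57 bp upstream of its TSS. The interval counts these 29 as independent, and the share without Cwc22 was not calculated. The higher E13.5-only share is therefore not read as a difference between the classes.

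Most E13.5-only peaks stood alone. Only 70 of the 550 lay within 10 kb of another E13.5-only peak of the same gene, in 21 groups, of which 17 were pairs, and 62 (11.3%) had a recurring E13.5 peak within 10 kb. Of the 70, 29 belonged to Cwc22, in groups of 15 and 14. At the level of genes, 510 had 1 E13.5-only peak and 44 had more. Of those 44, 14 had no E16.5 peak within 50 kb and 7 had none at any distance. Fam135b had 3 E13.5-only peaks, 18058, 25404 and 29075 bp upstream. The nearest E16.5 peak of an assigned gene lay 495895, 503241 and 506912 bp from them, in that order. Tamm41, a gene of mitochondrial lipid synthesis, had 2, at 6198 bp upstream and 40700 bp downstream, and no E16.5 peak at an assigned gene. Ric3, a chaperone gene of acetylcholine receptors, had 2, 7273 and 46816 bp upstream, the farther of which is the peak 40161 bp downstream of Lmo1. Skor1, a corepressor gene, had 2, at 35726 bp upstream and 10848 bp downstream, and a peak 5228 bp upstream between them that recurred at 5177 bp. The noncoding RNA gene 3110070M22Rik had 2, 5538 and 6177 bp upstream, among 7 E13.5 peaks within 50 kb, and both lay within 1 kb of an E16.5 peak.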

How the data were processed

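Sp9 ChIP-seq libraries of E13.5 and E16.5 basal ganglia were compared through the authors' deposited peak lists, 1 per stage. MACS2 2.1.0, BWA 0.6.2, CASAVA 1.8.2 and bcl2fastq 1.8.4, with build mm9, stand in the submitters' processing notes without roles. No source used here gives the threshold for a peak. The authors deposited text entries (no standard unit): for each gene its peaks, each with a signed distance from the TSS. The domain of a gene covered, per the file headers, 5000 bp before and 1000 bp after its TSS, extended up to 1000000 bp, with curated domains added. Depth is unknown. The intervals and tests reflect the number of peaks only, and take no account of depth, the peak threshold or variation between libraries.

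Peaks were classed by nearest distance and by a matching E16.5 distance within 200 bp. Names were matched to a RefSeq gene table (GRCm38.p6, names and gene type only); the nearest gene of 537 of the 550 peaks matched. The members, the 27 gene lists and the rule for naming genes were chosen with earlier results of these data known. The rule named up to 4 genes of each list, the 10 genes with the most such peaks, and 3 peaks at each limit, and a few of the genes it named are not reported here. Other genes (Arrdc4, Bcl11b, Sp8, Sp9, Klf7, Sox10, Gsx2 and those of the effector list at E16.5) and the printed promoters were chosen after their values were seen. Classes were compared by 8 two-sided Fisher's exact tests, adjusted by Benjamini-Hochberg, threshold 0.05; 2 of them used distance, which was part of the rule, and are not reported as tests, though they stay in the adjustment. Differences carry Newcombe intervals. The matching and the test were tested on simulated data. There, peaks were either kept within 100 bp or moved far away, so matching close to the 200 bp limit was not tested. Alternatives were limits of 100 bp, 500 bp and 1 kb, loci with 10 or more peaks left out, narrower windows, lettered entries counted singly and the nearest gene only. Python 3.11.15, numpy 2.4.6, scipy 1.17.1 and matplotlib 3.10.9 were used.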

Additional observations from a re-analysis of the deposited data

How the results depend on the processing

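The 550 E13.5-only peaks became 638 with a limit of 100 bp, 521 with 500 bp, 508 with 1 kb, 517 without loci of 10 or more peaks and 640 with lettered entries counted singly. Of the 550, 208 lay 5 to 20 kb and 342 lay 20 to 50 kb from the TSS. The 523 protein-coding genes became 599, 497 and 485 with the 3 limits and 460 with the nearest gene only. In alternatives added after seeing the data, the share of E13.5-only peaks in this range was 48.8%, 39.9%, 38.9% and 40.9% with the 3 limits and without dense loci, and 65 to 78 list genes had such a peak. Differences from recurring peaks are given in percentage points, those within 20 kb as a description only. With a limit of 100 bp the shares upstream and within 20 kb turned to 2.25 and 0.28, and the share with lettered entries passed the threshold at 3.19 points (adjusted Fisher's exact p = 0.00280, against 0.211 to 0.544 under the other settings). With 1 kb the share with a neighbour within 10 kb turned to -0.63. Without dense loci the shares within 20 kb, with a neighbour and with lettered entries turned to 0.10, -0.89 and -1.16. Against E16.5-only peaks the share with lettered entries turned to 0.56 with 500 bp and 0.59 with 1 kb. The cause of these changes was not tested. All other settings of the 8 comparisons kept their direction and their side of the threshold. With 1 kb, 7 of the genes chosen by the naming rule had no E13.5-only peak left: Bcl11a, Grik3, Sox21, Kcnq3, Itln1, Cd244 and 3110070M22Rik. No paired analysis was possible because each stage had 1 library.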

Other observations

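Several genes outside the lists had more than 1 E13.5-only peak, and were chosen after their values were seen. Fezf1, a zinc finger gene of forebrain patterning, had E13.5-only peaks 32668 and 37909 bp upstream, next to a peak 46501 bp upstream that was found again at 46554 bp. Trim8 had 2 downstream peaks at 22223 and 26697 bp, while its peaks 222 and 1644 bp upstream were found again at 340 and 1598 bp. Asap2, which encodes a regulator of the small GTPase ARF, had peaks 28290 and 30733 bp downstream with no E16.5 peak at any assigned gene. Calcr, the calcitonin receptor gene, had peaks 33881 and 39812 bp downstream, and Zfp516 had peaks 38204 and 42036 bp upstream, where the E16.5 list had a single peak within 50 kb, 3674 bp downstream. Rgma, which encodes a ligand of Neo1, had E13.5-only peaks 21010 bp upstream and 24938 bp downstream, and no E16.5 peak within 50 kb.

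One E13.5-only peak, 10264 bp from the TSS of the homeobox gene Evx2, was assigned to 8 genes, among them 6 olfactory receptor entries from 11270734 to 11344626 bp away, far past the 1000000 bp extension of the file headers. Outside the Cwc22 locus 3 E13.5-only peaks had lettered entries, and 1 of them, 27199 bp from the TSS of Sfi1, was divided into 29.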
